A study of Mus musculus with 3 samples.

Results

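The genes described here encode the factors that translate mRNA and take it apart. They were chosen by name among the genes with a called 5-methylcytosine (m5C) site in GV oocytes, MII oocytes or 1-cell embryos of the mouse. A gene was included where its symbol began with Eif (initiation), Eef (elongation), Pabp (poly(A) binding), Cpeb (cytoplasmic polyadenylation element binding), Cpsf or Cstf (3′ end cleavage and polyadenylation), Cnot (the CCR4-NOT deadenylase), Edc, Dcp or Xrn (decapping and 5′-3′ decay), Exosc (the exosome), Ythd, Igf2bp or Pum (mRNA-binding regulators), Tnrc6, or Ago with a digit (miRNA silencing). The rule found 106 of the 8353 genes with a called site, and 540 of the 40298 distinct sites. The rule chose by name among genes with a called site. The limits on reads and level that a call needs, given below, therefore decided which genes with such names could enter. Of 143 annotated protein-coding genes with such names, 104 had a called site and 39 had none, among them Eif4e, Eif3a, Eif5b, Edc3, Ago1 and Pabpn1. The prefixes also took in 11 genes that are not core factors, such as the eIF2 kinases Eif2ak1, Eif2ak3 and Eif2ak4, the eEF2 kinase Eef2k and Cpsf3l, which the annotation lists as the integrator subunit Ints11.

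Each stage was 1 pooled library of C57BL/6J material, so no value has a replicate check. The females were 7 to 8 weeks old. GV oocytes, which are arrested before meiotic resumption, were taken 48 h after 10 IU of PMSG, a hormone that makes follicles grow. MII oocytes, which have matured and await fertilization, followed 10 IU of PMSG and then 5 IU of hCG, the ovulation signal, by 12 h. About 200 1-cell embryos came from females given 5 IU of each hormone and mated with C57BL/6J males, and were taken 24 h after hCG. These doses come from the labels, while the published methods state more hCG for MII oocytes. The conversion steps described for the embryo also differed from those for the oocytes, so stage and library preparation cannot be told apart. All 10 oocyte genes used as a check (Gdf9, Zp3 and H1foo among them) had a site in the embryo list, and 5 and 7 of them in the GV and MII oocyte lists. Of 10 granulosa and cumulus genes, 2 had a site, in MII oocytes alone (Amh, 13.5% of 96 reads, and Cyp19a1, 10.2% of 49 reads), and 8 had none. Whether other cells contributed reads was not tested.

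A fully grown oocyte stops transcribing and then lives on stored mRNA. Meiotic maturation and the first cell cycle are run by translating some of these mRNAs, through lengthening of their poly(A) tails, and by clearing others, through deadenylation, decapping and exonuclease digestion. The genes here make that machinery and are at the same time maternal mRNAs themselves. In mRNA, m5C is placed mainly by NSUN2 at Type I sites, which are typically followed by a G-rich stretch, and by NSUN6 at Type II sites. Type II sites read CUCNA from the methylated base on. Here, as in the published methods, every site without CUCNA was counted as Type I, whatever bases follow it. The enzyme of a single site was not tested. Bisulfite converts C and leaves m5C, so the level of a site is the share of unconverted reads among all reads that cover it (its coverage).

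The sequences of the sites on which the results turn show both classes. Each is 21 nt of spliced RNA, 5′ to 3′, with the site as the first of 5 capitals, and was read from GRCm38. The first 4 lines are Type I sites that rose over both steps.
Eif4e1b, exon 2, CDS: gugcugggauCAAAGgcgggu
Cnot7, exon 2, CDS: uaugaaugaaCAGGGagaaua
Igf2bp2, exon 1, CDS: ggcagcucuuCGGGGacagga
Dcp1a, exon 10, 3′ UTR: acaugaaacuCAAGGugccua
The next lines are the Type II sites of the group that were called at every stage, and they show the CUCNA motif.
Cnot7, exon 3, CDS: augcucaggaCUCUAuagagc
Eif4b, exon 14, CDS: aagaucaagaCUCCAgaucug
The lines after these are neighbouring Cpeb3 sites of opposite course, the upstream one first.
Cpeb3, exon 11, CDS: gcuggaugauCAGAUguguga
Cpeb3, exon 11, CDS: ugacgaguguCAGGGcacacg
A further Cpeb3 site is followed directly by another called cytosine, the second capital.
Cpeb3, exon 8, CDS: caaggauaaaCCGGUgcaaau

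The number of called sites in these genes was highest in the embryo. There were 180 sites in 81 genes in GV oocytes, 248 sites in 84 genes in MII oocytes and 408 sites in 90 genes in 1-cell embryos. The embryo count was 2.27 times that of the GV oocyte, against 1.57 times for all genes (15910, 20694 and 24996 sites). As a share of each list, the group held 1.13% of the GV oocyte sites, 1.20% of the MII oocyte sites and 1.63% of the 1-cell embryo sites. The size of the embryo count depended on the minimum of reads, in the group and in all genes alike. With a minimum of 50 reads the embryo count was 1.69 times that of the GV oocyte in the group and 1.16 times in all genes, and with 100 reads 1.01 and 0.694 times. At 100 reads the group had 134, 173 and 135 sites from GV oocyte to embryo, and all genes had 9020, 10809 and 6256. Coverage of the called sites had a median of 239.5 reads in GV oocytes, 188.5 in MII oocytes and 69.5 in 1-cell embryos, against 121, 107 and 58 over all sites. A list holds only sites with 20 or more reads, a level of 10% or more and at least 5 unconverted reads, so that a site with 20 reads needs a level of 25%. Absence from a list may mean no methylation, values under these limits, too few reads or removal by another filter of the authors.

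**Figure D1:**
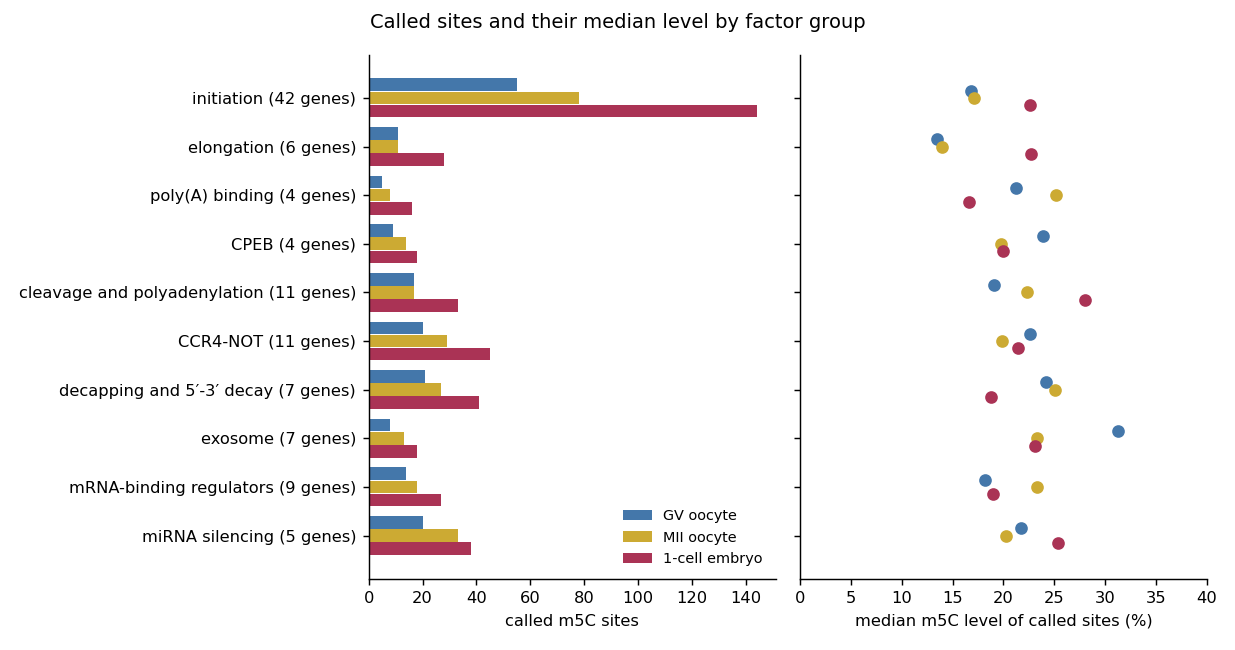
Called m5C sites (left, count) and their median level in percent (right) in GV oocytes (blue), MII oocytes (yellow) and 1-cell embryos (red) for the 10 factor groups. Every group had its most sites in the embryo, from 16 for poly(A) binding to 144 for initiation, while the median level of the called sites had no common order over the stages.

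The median level of the called sites was 19.5% (95% interval 16.9% to 22.2%) in GV oocytes, 19.9% (17.9% to 22.0%) in MII oocytes and 22.5% (20.0% to 24.8%) in 1-cell embryos. The intervals overlapped, but they are over sites taken as independent and give no error of a stage. All sites had medians of 19.5%, 19.8% and 23.8%. At 50 reads or more the group had medians of 19.0%, 19.8% and 17.4%, and all sites 18.3%, 18.6% and 18.2%. The higher embryo value was thus found in neither. Sites at 50% or more numbered 15, 25 and 57. A level of 100% was found at 6 sites, all in the embryo, in Cpeb3 (99 reads), Edc4 (88 reads), Exosc8 (63 reads), Eif4e2 (47 reads), Eif2ak4 (33 reads) and Eif1ad (27 reads). These were 6 of 408 embryo sites, where 551 of the 24996 embryo sites of all genes were at 100%. The unconverted background of the genes, recovered from the deposited p-values, had a median of 0.260% in GV oocytes, 0.401% in MII oocytes and 0.30% in embryos. It is a rate per gene, and incomplete conversion at single bases was not tested.

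Of the 180 GV oocyte sites, 158 (87.8%, 95% Wilson interval 82.2% to 91.8%) were also in the MII oocyte list, where they were 63.7% of the sites. From the MII oocyte, 135 of 248 sites (54.4%, 48.2% to 60.5%) were also in the embryo list, where they were 33.1% of the sites. The corresponding shares for all sites were 81.4% and 38.7%. Among sites with at least 100 reads in the MII oocyte, 71.1% of the group and 60.9% of all sites were in the embryo list, and coverage differed between the group and all sites as given above. Of the 270 sites called in the embryo alone, 240 (88.9%, 84.6% to 92.1%) lay in genes that had a site in an oocyte list, against 88.4% for all genes. Intervals cover counting error only.

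At shared sites the levels were compared with a two-sided Fisher's exact test on the reads, adjusted over all shared sites of the pair (Benjamini-Hochberg). The test compares the reads of 2 libraries, not the stages, and whether the courses of single sites differ from each other was not tested. A shared site passed the limits on reads and level in both lists, so a site that fell under them was not compared. Median coverage at the group's sites shared by MII oocyte and embryo was 327 and 81 reads. The limit on unconverted reads thus weighed more on the embryo, and the counts of rises and falls depend on it. From GV to MII oocyte, 47 of the 158 sites of the group (29.7%) were higher and 1 was lower, where 19.6% of all shared sites were higher and 0.965% lower. The median difference was 5.42 percentage points (4.48 to 6.26), and 4.87 over all shared sites. The group had a median of 290.5 reads at these sites in the GV oocyte, against 151 over all of them, and with 100 reads or more in both oocytes the shares called higher were 38.1% and 32.8%. From the MII oocyte to the embryo, 71 of 135 sites (52.6%) were higher and 4 lower, where 51.3% of all shared sites were higher and 2.45% lower. The median difference was 10.8 points (8.54 to 13.3), against 12.7 over all. From the GV oocyte to the embryo, 69 of 104 sites (66.3%) were higher and 1 lower, where 66.1% of all were higher and 1.05% lower, and the median difference was 16.0 points (12.3 to 20.2) against 19.2. The shares of both comparisons with the embryo were thus near those of all sites. If reads are copies of fewer molecules the calls shrink. With all reads divided by 5, 0 of the group's sites were higher or lower between the oocytes, 11 (8.15%) were higher from the MII oocyte to the embryo and 25 (24.0%) from the GV oocyte to the embryo. Over all shared sites 0.672%, 7.34% and 21.1% were then higher, so the group was near the background here too.

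**Figure D2:**
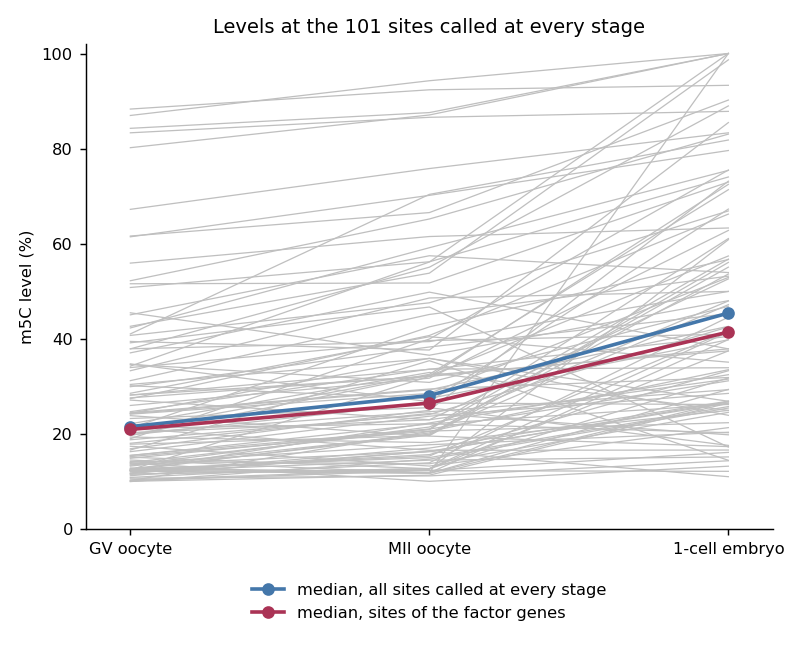
m5C level in percent (vertical axis) at the 3 stages for the 101 sites of the group called at every stage (grey lines, 1 per site), with their median (red) and that of all 6145 such sites (blue). The red median goes from 21% to 26.5% to 41.5%, and the blue one from 21.6% to 28.1% to 45.5%.

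The 101 sites called at every stage lay in 54 genes. Their median level was 21% in GV oocytes, 26.5% in MII oocytes and 41.5% in 1-cell embryos, at median coverages of 415, 335 and 92 reads. The level was higher at each later stage at 70 of them (69.3%) and lower at each at 2 (1.98%), against 67.4% and 1.82% of the 6145 sites of all genes. Sites that fell under the limits on reads and level at a later stage are not among these.

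Initiation factors recruit the small ribosomal subunit to the mRNA and place it on the start codon. The Eif genes were the largest group, with 42 genes and 181 sites. Not all of them encode initiation factors, since the name also takes in the eIF2 kinases and the pseudogene Eif5al3-ps. Eif4e1b is a cap-binding protein of oocytes related to eIF4E. The exon 2 site of Eif4e1b (CDS, plus strand of chromosome 13, position 54784293), whose sequence is shown above, was at 10.2% of 547 reads in GV oocytes, 20.6% of 549 in MII oocytes and 33.5% of 310 in 1-cell embryos. The level rose at both steps (exact test, adjusted p = 5.17e-05 and 0.000155). Its 3′ UTR site was at 10.2% of 1750 reads in MII oocytes and 10.7% of 600 in embryos. Eif4enif1, which binds eIF4E and holds mRNAs in a repressed state, had 9 sites, none in the GV oocyte list. The site of Eif4enif1 shared by MII oocyte and embryo (exon 9, CDS) went from 12.3% of 699 reads to 21.6% of 389 (exact test, adjusted p = 0.000291).

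The helicase eIF4A and its cofactor eIF4B unwind the 5′ end of the mRNA. Eif4b had Type I and Type II sites in 1 mRNA. Its Type I site in exon 7 (CDS, chromosome 15, position 102088750, plus strand) had 232 unconverted of 891 reads in GV oocytes (26%), 224 of 705 in MII oocytes (31.8%) and 223 of 355 in embryos (62.8%), and rose at the second step (exact test, adjusted p = 6.04e-20). A Type I site in exon 8 was at 12.4%, 15.4% and 41.7%, with adjusted p = 9.71e-14 at the second step (exact test). The Type II site in exon 14 was at 21.3% of 1331 reads, 22.2% of 996 and 20.3% of 458, with adjusted p of 0.82 and 0.55 (exact test). Both 3′ UTR sites of Eif4a1 rose from the MII oocyte to the embryo, from 66.6% to 90.2% and from 21% to 56.8% (exact test, adjusted p = 1.65e-05 and 5.56e-07).

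The eIF4G scaffolds bridge the cap-binding protein and the ribosome. Eif4g2 encodes a scaffold that lacks the eIF4E-binding part, and its exon 10 site was at 45.5% of 991 reads in GV oocytes, 36.6% of 593 in MII oocytes and 48.1% of 154 in embryos. It was the 1 site of the group that fell between the oocytes (exact test, adjusted p = 0.0049), and it rose again to the embryo (adjusted p = 0.0249). Neither call of this Eif4g2 site held with reads divided by 5. Eif4g3 had 16 sites, 7 in GV oocytes, 10 in MII oocytes and 8 in embryos, of which 2 were called at every stage. A run of 3 Eif4g3 sites in exon 2, each 3 nt from the next, was at 16.8%, 35.1% and 19.6% in GV oocytes and at 28.7%, 43.5% and 31.7% in MII oocytes (no call, exact test), and was not in the embryo list. Eif4g1 had 11 sites and 1 at every stage, at 27.2%, 23.0% and 31.6%.

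The subunits of eIF3, which binds the small ribosomal subunit, held the second-step rise with the largest difference at 50 reads or more. The exon 16 site of Eif3c (CDS, chromosome 7, position 126552179, minus strand) was at 39.5% of 823 reads in GV oocytes, 37.7% of 743 in MII oocytes and 85.5% of 124 in embryos (exact test, adjusted p = 3.75e-22 for the second step). The oocytes lay within 2 points of each other and the embryo stood apart. Eif3b had 8 sites and none shared with the embryo, 6 of them in the embryo alone. Eif6, which keeps the large ribosomal subunit from joining early, had a 5′ UTR site at 40.8% of 1244 reads, 47.6% of 1086 and 66.9% of 269, and it rose at both steps (exact test, adjusted p = 0.00789 and 9.88e-08). Eif1ax, a scanning factor, had a CDS site that rose between the oocytes from 13.6% to 16.4% and fell to 11.1% of 506 reads in the embryo (exact test, adjusted p = 0.034 and 0.00668). The 5′ UTR site of Eif1ax was at 15.3% of 1412 reads, 20.7% of 1443 and 22.4% of 290, and rose between the oocytes (exact test, adjusted p = 0.00232). None of these Eif1ax calls held with reads divided by 5. The widest gap among all shared sites of the group was in the 5′ UTR of Eif1ad, at 12.9% of 62 reads, 11.9% of 59 and 100% of 27 (exact test, adjusted p = 1.08e-14 for the second step). Over the Eif genes, 9 of 49 shared sites rose and 1 fell between the oocytes, and 22 of 46 rose and 1 fell from the MII oocyte to the embryo. Over all shared sites 19.6% and 51.3% were higher, which is the background for these counts and for those of each group below.

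Elongation factors carry the ribosome along the coding sequence. Eef2, the translocase, had 9 sites, 3 in each oocyte list and all 9 in the embryo list. Its exon 12 site was at 12.4% of 1939 reads, 11.9% of 2157 and 39.9% of 316, with no call between the oocytes (exact test, adjusted p = 0.811) and a rise to the embryo (adjusted p = 2.71e-28). Eef2k, the kinase that inhibits eEF2, also had 9 sites, all listed in the embryo. The exon 10 site of Eef2k was at 15.6% of 1510 reads, 21.1% of 1292 and 61.1% of 36, and rose at both steps (exact test, adjusted p = 0.00205 and 2.03e-06). Eefsec, the elongation factor for selenocysteine, had a site in exon 1 at 12.5% of 232 reads, 32.2% of 227 and 72.5% of 80, which also rose at both (exact test, adjusted p = 9.97e-06 and 5.7e-09). In all, 4 of 8 shared elongation sites rose between the oocytes and 10 of 10 from the MII oocyte to the embryo, the latter in 3 genes and with a median relative coverage of -0.97 on the log2 scale (defined below). Eef1d, an exchange factor, was at 13.5% of 2161 reads and 13.8% of 1745 in the oocytes and had no row in the embryo list.

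Poly(A)-binding proteins coat the tail. Pabpc1l, the form found in oocytes and early embryos, had 3 sites in GV oocytes, 4 in MII oocytes and 9 in embryos. The 3 sites listed at every stage, in exons 1, 4 and 6, were at 24.3%, 21.3% and 14.9% in GV oocytes, at 29.3%, 42.6% and 21.1% in MII oocytes and at 42.7%, 56.7% and 31.2% in embryos. Each rose at each step, and the least of these calls was adjusted p = 0.0468 (exact test, exon 4, MII oocyte to embryo). Pabpn1l, an oocyte relative of the nuclear poly(A)-binding protein, had 3 sites in the embryo alone, at 12.9% of 403 reads, 16.8% of 1007 and 10.8% of 65. Pabpc1, the general form, had 1 site, in the embryo at 17.6% of 85 reads. Pabpc4 had 1 site at every stage, at 17.9% of 95 reads, 19.7% of 66 and 53.7% of 41, and rose at the second step (exact test, adjusted p = 0.00165). Over the poly(A)-binding genes 3 of 5 shared sites rose between the oocytes and 5 of 5 to the embryo.

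CPEB proteins bind the 3′ UTR element through which stored mRNAs gain or lose their tails. Cpeb1 had 7 sites. Its exon 3 site at position 81372051 of chromosome 7 was at 30.0% of 874 reads, 38.3% of 394 and 45.3% of 128, and rose between the oocytes (exact test, adjusted p = 0.0226). The neighbouring exon 3 sites at 19.5% and 45.2% in GV oocytes were at 30.1% and 50% in MII oocytes and were not in the embryo list. Cpeb3 had 14 sites. The upstream exon 11 site of Cpeb3 (chromosome 19, position 37025057, minus strand, CDS) was at 39.2% of 352 reads, 46.7% of 229 and 17.3% of 52, and it fell to the embryo (exact test, adjusted p = 0.000279). The site 18 nt downstream was at 13.3% of 331 reads, 20.0% of 210 and 55.1% of 49, and it rose (exact test, adjusted p = 1.43e-05). The order of these neighbours, both shown above, was thus opposite in oocytes and embryo, and neither call held with reads divided by 5. Another Cpeb3 site, in exon 8 at position 37068175, had the highest level of the group in MII oocytes and the next to highest in GV oocytes, at 87.0% of 384 reads and 94.3% of 297, and was at 100% of 99 in the embryo. Of the shared sites of the CPEB genes, 3 of 9 rose between the oocytes, and 2 of 6 rose and 1 fell to the embryo. Cpeb2 had 2 sites, in MII oocytes alone, and Cpeb4 had 3 sites and none shared.

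**Figure D3:**
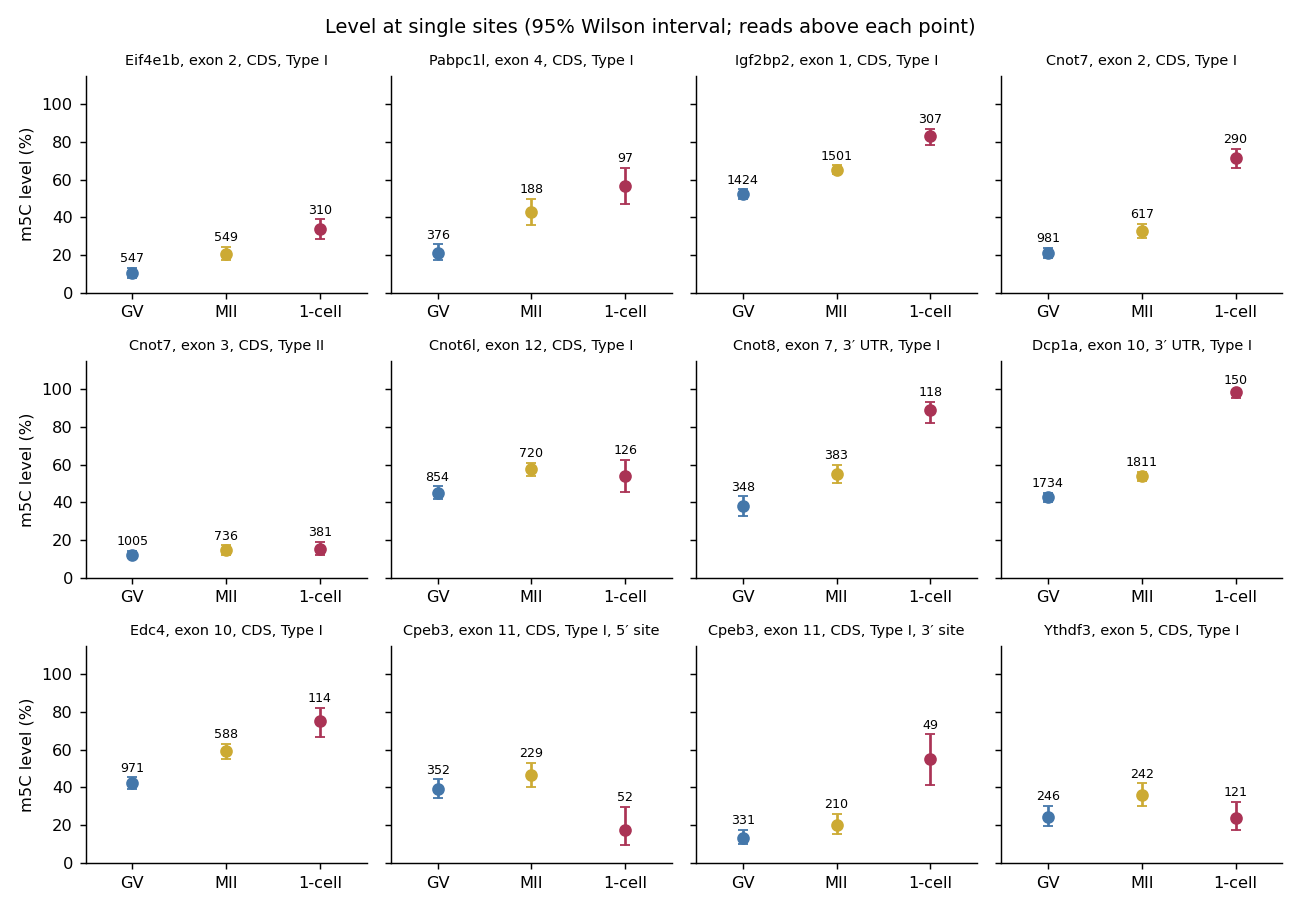
m5C level in percent (vertical axis) at 12 sites in GV oocytes, MII oocytes and 1-cell embryos, with 95% Wilson intervals for counting error and the number of reads above each point. The Cnot7 exon 2 site went from 21% to 32.6% to 71.4% while the Type II site of the same mRNA in exon 3 stayed between 12.1% and 15.2%, and the 5′ site of Cpeb3 exon 11 was lower in the embryo than in either oocyte.

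The cleavage and polyadenylation factors CPSF and CSTF make the 3′ end in the nucleus. Cstf1 had 11 sites, all of them in the embryo list and 3 at every stage. The Cstf1 site at position 172381215 of chromosome 2, in the 3′ UTR, was at 41.1% of 112 reads, 70.4% of 152 and 81.8% of 44, the largest rise of the group between the oocytes (exact test, adjusted p = 5.61e-05). Cpsf4l, a relative of the RNA-binding subunit Cpsf4, held a site in exon 1 with the highest level of the group in GV oocytes, at 88.3% of 1182 reads, followed by 92.4% of 852 and 93.3% of 329. Cpsf1, the largest subunit, had 10 sites of which none was in an oocyte list and the embryo list together. In this group 3 of 12 shared sites rose between the oocytes and 3 of 8 to the embryo.

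CCR4-NOT shortens poly(A) tails, the first step in the decay of most mRNAs. Its 11 listed genes had 56 sites, 12 at every stage. Between the oocytes 6 of 19 shared sites rose, and 9 of 19 rose to the embryo. Cnot7 and Cnot8 encode alternative catalytic subunits, and Cnot6l a catalytic subunit known for maternal mRNA deadenylation. The exon 2 site of Cnot7 (chromosome 8, position 40507513, minus strand, CDS) had 206 unconverted of 981 reads in GV oocytes (21%), 201 of 617 in MII oocytes (32.6%) and 207 of 290 in embryos (71.4%). It rose at both steps (exact test, adjusted p = 1.01e-05 and 5.39e-26), and the second call held with reads divided by 5 (adjusted p = 0.00034). The Type II site in exon 3 of the same gene was at 12.1% of 1005 reads, 14.5% of 736 and 15.2% of 381, with adjusted p of 0.35 and 0.86 (exact test). Its level was the lower one at each stage.

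Cnot8 had 3′ UTR sites with high levels. The first, at position 58118132 of chromosome 11, was at 37.9% of 348 reads, 55.1% of 383 and 89.0% of 118, and rose at both steps (exact test, adjusted p = 8.24e-05 and 2.97e-11). The calls of Cnot6l were others. Its exon 12 site (chromosome 5, position 96077188, minus strand, CDS) was at 45.1% of 854 reads, 57.5% of 720 and 54.0% of 126, and it rose between the oocytes (exact test, adjusted p = 2.24e-05) with no call to the embryo (adjusted p = 0.592). The other Cnot6l site was at 14.4% of 1265 reads in MII oocytes and 11.1% of 542 in embryos. Of the scaffold Cnot1, 12 sites were listed, 2 of them at every stage and the other 10 in the embryo alone, at coverages of 22 to 204 reads. Cnot11 had 10 sites, with 8 in MII oocytes, and its median coverage was 153, 235 and 298.5 reads. Cnot3, an adaptor subunit, had 1 and 2 sites in the oocytes and none in the embryo.

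Decapping removes the cap, after which Xrn1 digests the mRNA from its 5′ end. Of the shared sites of these genes, 9 of 18 rose between the oocytes and 8 of 15 to the embryo. Dcp1a, the activator of the decapping enzyme, had 2 sites in GV oocytes, 3 in MII oocytes and 11 in embryos. The Dcp1a site at position 30526237 of chromosome 14, in the 3′ UTR, was at 42.7% of 1734 reads, 53.8% of 1811 and 98.7% of 150, the highest level of the group in the embryo at 100 reads or more. It rose at both steps (exact test, adjusted p = 2.34e-09 and 1.78e-32). Further along the same 3′ UTR, position 30526867 had levels of 16.9%, 25% and 73.2%, and it rose at both as well (exact test, adjusted p = 0.000296 and 4.46e-09).

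Edc4, the scaffold of the decapping complex, had 26 sites, as many as Tnrc6c and more than any other gene of the group. In GV oocytes 11 of them were called, in MII oocytes 15, in embryos 20 and at every stage 8. Among these 8, levels in GV oocytes ran from 10.9% to 80.2% and in embryos from 17.6% to 100%. The exon 10 site of Edc4 was at 42.3% of 971 reads, 59.2% of 588 and 75.4% of 114, and rose at both steps (exact test, adjusted p = 7.22e-09 and 0.00283). The exon 16 site was at 22.2% of 622 reads, 33.0% of 461 and 25% of 80, and rose at the first step (exact test, adjusted p = 0.00122 and 0.274). Dcp2, the decapping enzyme, had 10 sites and 1 at every stage, at 31.2% of 192 reads, 45.2% of 248 and 53.2% of 156, with a call between the oocytes (exact test, adjusted p = 0.0205). Xrn1 had 1 site at every stage, at 24.2% of 95 reads, 28.6% of 91 and 52.9% of 34, and Xrn2, the nuclear enzyme, had 2 sites and none at every stage.

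The exosome digests RNA from the 3′ end. Its shared sites rose at 2 of 8 between the oocytes and at 3 of 6 to the embryo. Exosc8, a subunit of its ring, had a site at position 54734677 of chromosome 3, in an exon outside the annotated coding sequence, at 34.3% of 137 reads, 56.2% of 178 and 100% of 63. It rose at both steps (exact test, adjusted p = 0.00185 and 3.7e-12). A site in exon 22 of Exosc10, the nuclear exonuclease, was high throughout, at 83.3% of 228 reads, 86.6% of 179 and 87.8% of 74, with no call (exact test, adjusted p = 0.653 and 1), whereas its exon 6 site was at 34.8%, 26.8% and 67.3% and rose at the second step (adjusted p = 1.02e-06).

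Among the mRNA-binding regulators, Igf2bp2 is an RNA-binding protein known for stabilizing its targets. Its exon 1 site (chromosome 16, position 22162895, minus strand, CDS) was at 52.2% of 1424 reads, 65.2% of 1501 and 83.1% of 307, and rose at both steps (exact test, adjusted p = 9.94e-11 and 2.07e-09). The YTH proteins are readers of N6-methyladenosine. Ythdf1 had 1 site, at 19.0% of 105 reads, 40% of 70 and 75.5% of 49, and it rose at both steps (exact test, adjusted p = 0.0205 and 0.000546). Of the 7 Ythdf3 sites, 2 rose between the oocytes (exact test, adjusted p = 0.0296 and 0.0321) and fell to the embryo, 1 in the 5′ UTR at 16.7%, 35.4% and 14.5% and 1 in exon 5 at 24.4%, 36.0% and 24.0% (adjusted p = 0.0145 and 0.0442 by the same exact test). Another 5′ UTR site of Ythdf3, at position 16183456 of chromosome 3, was at 11.3% of 488 reads, 16.4% of 451 and 26.6% of 241. It rose from the MII oocyte to the embryo (exact test, adjusted p = 0.00483). With reads divided by 5 none of these Ythdf3 calls held. Ythdf2, the reader known for maternal mRNA clearance, had 4 sites in its 5′ UTR, 1 in GV oocytes and 3 others in embryos. Igf2bp3 had 7 sites and none at every stage, and Ythdc1, the nuclear reader, had a 5′ UTR site at 37.1% of 337 reads, 49.9% of 335 and 37.9% of 29. Pum2, a repressor that binds the 3′ UTR, had 5 sites. Of the shared sites of these regulators 5 of 11 rose between the oocytes, and 3 of 9 rose and 2 fell to the embryo.

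In miRNA silencing, Ago proteins hold the small RNA and Tnrc6 proteins link them to deadenylation. Tnrc6c had 26 sites, with 9 in GV oocytes, 12 in MII oocytes and 22 in embryos, and 14 of them were in exon 5. Tnrc6b had 21 sites, none at every stage, and 12 were in the embryo alone. A Tnrc6b site in the 3′ UTR, at position 80930568 of chromosome 15, rose between the oocytes from 29.2% of 130 reads to 57.1% of 156 (exact test, adjusted p = 5.98e-05) and had no row in the embryo. Ago2, the slicer, had 3 sites in GV oocytes, 5 in MII oocytes and none in the embryo, at median coverages of 198 and 150 reads. Tnrc6a had 1 site, in the oocytes. Over the silencing genes 3 of 19 shared sites rose between the oocytes and 6 of 11 to the embryo.

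**Figure D4:**
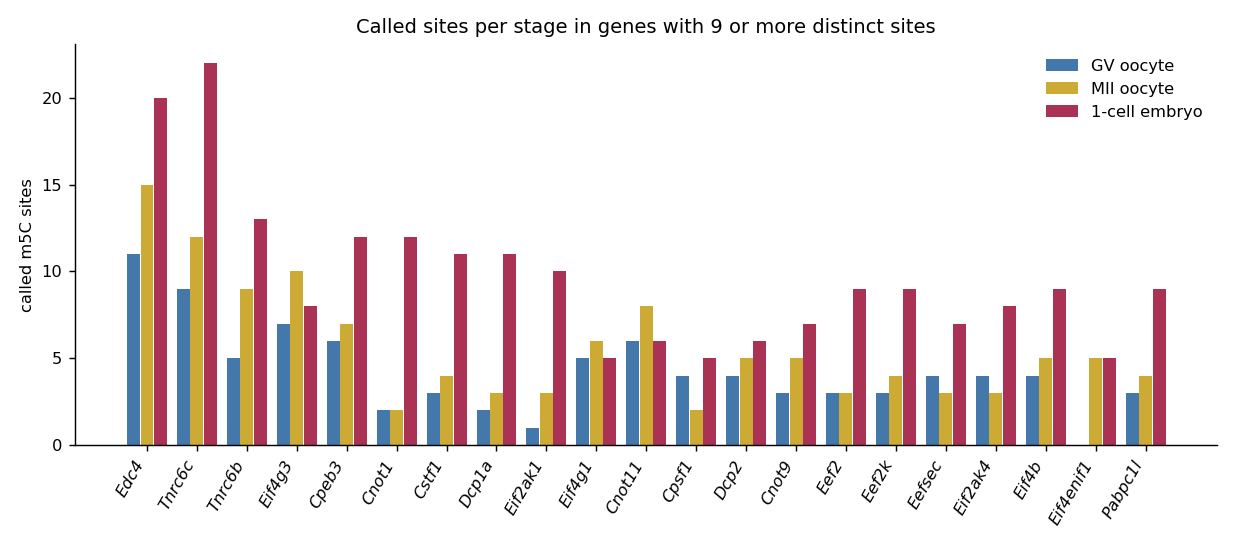
Number of called m5C sites (vertical axis) in GV oocytes (blue), MII oocytes (yellow) and 1-cell embryos (red) for each gene with 9 or more distinct sites. Tnrc6c goes from 9 to 12 to 22 sites and Cnot1 from 2 to 2 to 12, while Eif4g3, Eif4g1 and Cnot11 have most in MII oocytes.

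By gene, 63 of the 106 were in every list, 64 had more sites in the embryo than in the MII oocyte, 22 had fewer and 20 had as many. The shares with more and fewer were 60.4% and 20.8%, against 48.4% and 34.3% of all genes. The embryo list alone held 15 genes, among them Pabpn1l, Pabpc1, Eef1a1, Exosc1 and Eif2s2. Of the genes in the embryo list, 83.3% were also in an oocyte list, near the 82.3% of all genes. An oocyte list but not the embryo list held 16. Among these were Ago2, Tnrc6a, Cpeb2, Cnot3, Cpsf4, Cpsf6, Cpsf3l, Dcp1b, Eef1d, Eif2ak3, Eif4ebp1, Eif5al3-ps, Exosc2, Exosc4 and Pum3. Of the 91 genes in an oocyte list, 82.4% (73.3% to 88.9%) were thus in the embryo list, against 73.0% of all genes. Eif5al3-ps is a pseudogene of the Eif5a kind, and reads of such copies may not be told apart.

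The reads at shared sites were compared as well. Relative coverage is the log2 ratio of coverage at the later to that at the earlier stage, less the median of all sites shared by the pair. It follows the reads of called sites, and fewer mRNA copies per cell, a different library make-up and a different depth along the mRNA cannot be told apart in it. Between the oocytes the 74 genes of the group with a shared site had a median of -0.06 (middle 50% from -0.26 to 0.14), with 1 gene (1.35%) down by more than 2-fold and 1 up, against 1.34% and 0.798% of all genes. The gene that was down was Cpeb1 at -1.08, whose exon 3 site had 874 reads in GV oocytes and 394 in MII oocytes. The gene that was up was Eif2s1, a subunit of eIF2, at 1.17, which rests on 1 site with 21 and 41 reads. Eif3b (-0.69), Eif3h (-0.67), Eif4a2 (-0.61) and Pabpc1l (-0.56) followed, and Tnrc6b (0.43), Eef2 (0.37), Cstf1 (0.32) and Xrn2 (0.31) had high values among genes with a site of 50 reads or more.

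From the MII oocyte to the embryo the spread was wider. The 60 genes had a median of -0.06 (-0.68 to 0.35), with 10 (16.7%) down by more than 2-fold and 2 (3.33%) up, against 11.7% and 11.9% of the 3804 genes with a shared site. Eef2k was lowest at -2.61, followed by Dcp1a (-2.44), Eif4g3 (-2.37), Eif2b2 (-2.07) and Ythdc1 (-1.88). At the exon 10 site of Eef2k the reads were 1510, 1292 and 36. Ythdf1 was highest at 1.14 and Cnot9, a CCR4-NOT subunit, was at 1.11, and Eif3h (0.98), Pabpc4 (0.97) and Cpsf2 (0.96) were near it. From the GV oocyte to the embryo, Dcp2 was highest at 1.54 and Eif4e1b was at 1.02, while Eef2k was at -3.07 and Eif4g3 at -2.55. The Dcp2 value rests on 1 site with 192 reads in GV oocytes and 156 in embryos, and from MII oocyte to embryo its 2 shared sites gave 0.57. By group, the median over sites from MII oocyte to embryo ran from -0.97 for elongation and -0.87 for decapping and 5′-3′ decay to 0.55 for CCR4-NOT and 0.65 for the mRNA-binding regulators, and sites of 1 gene share its reads.

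**Figure D5:**
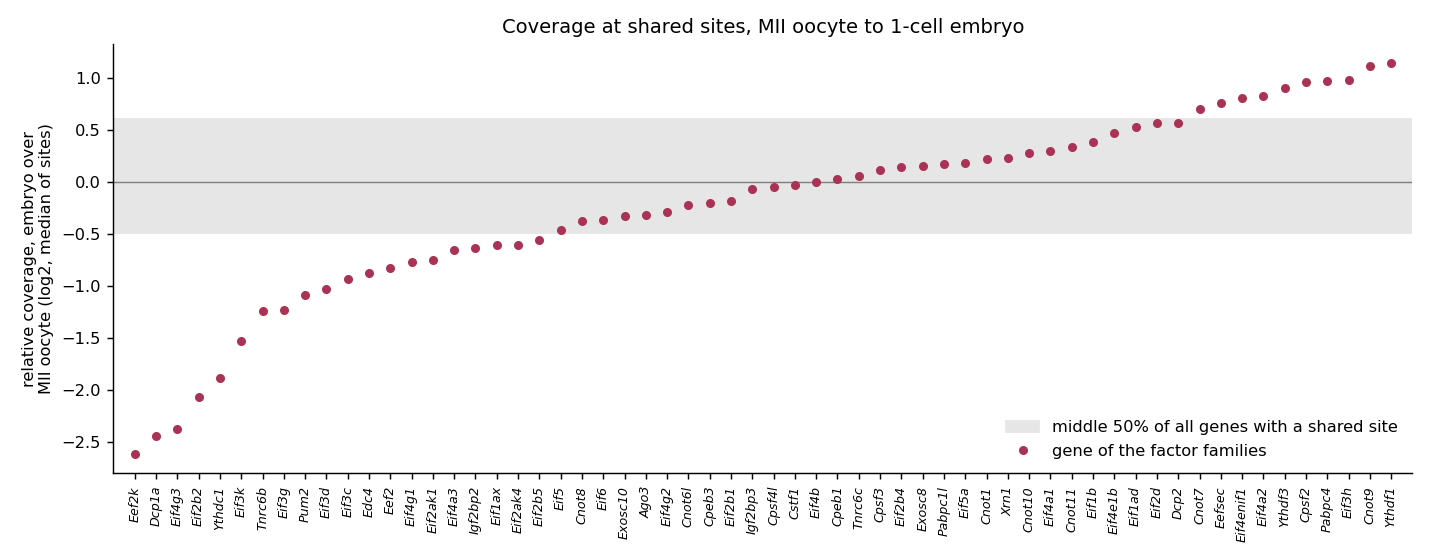
Relative coverage at shared sites (log2, embryo over MII oocyte, median of the sites of a gene, vertical axis) for the genes of the group in rising order, with the middle 50% of all genes in grey. Eef2k, Dcp1a and Eif4g3 lie below -2.3 and Ythdf1 is highest at 1.14.

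Relative coverage and level difference showed little relation across sites. Over the 135 sites of the group shared by MII oocyte and embryo Pearson's r was -0.11 and Spearman's rho -0.06. At 100 reads or more, r was -0.23 over 59 such sites, against -0.03 over all shared sites. It was then -0.25 from the GV oocyte to the embryo and 0.22 between the oocytes. These points share 2 libraries and the same reads, so the values are a description. Sites with relative coverage down by more than 2-fold had a median difference of 17.6 points at 24 sites, those within 2-fold 10.8 points at 103 sites and those up by more than 2-fold 3.63 points at 8 sites. Over all shared sites the medians were 16.8, 12.1 and 12.3 points. From the GV oocyte to the embryo the same classes of the group had 16.4, 15.8 and 17.1 points, so no order was seen there.

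Most of the sites were Type I, in the CDS. Of the 540 sites, 386 were in the CDS, 71 in the 5′ UTR, 80 in the 3′ UTR and 3 in other exons, and 16 were Type II. The CDS share was 68.3% in GV oocytes, 68.5% in MII oocytes and 77.0% in embryos, against 68.1%, 68.6% and 73.3% for all sites. The Type II share was 3.89% (1.90% to 7.81%), 3.23% (1.64% to 6.24%) and 2.45% (1.34% to 4.45%), against 5.91%, 5.03% and 3.44% of all sites. None of the 7 Type II sites shared by the oocytes or the 2 shared with the embryo was called, where 10.2% and 36.4% of all shared Type II sites were higher. The Type II site of Ago2 was at 23.2% of 95 reads in GV oocytes and 21.1% of 57 in MII oocytes. Type I sites had a mean of 2.23 G (SD 0.81 across sites) among the 4 following bases in GV oocytes, 2.21 (SD 0.83) in MII oocytes and 1.95 (SD 0.94) in embryos, and 1.84 at sites called in the embryo alone, against 1.86 for such sites of all genes. Directly adjacent cytosines were called together in 5 pairs of the group in GV oocytes, 6 in MII oocytes and 7 in embryos. Since 1 read covers both, their coverage was alike, while the gap between their levels ran from 0.25 to 79.6 points in embryos. In exon 8 of Cpeb3, shown above, the upstream cytosine was at 87.0%, 94.3% and 100% and the next one at 13.9%, 17.8% and 20.4%, at 382, 298 and 98 reads. In exon 6 of Exosc10 the pair was at 11.8% and 26.8% in MII oocytes and at 13.7% and 67.3% in embryos, so the difference lay at the downstream base. The median gap within a pair was 16.4, 18.2 and 22.0 points in the group, against 12.5, 14.0 and 16.1 points over 332, 486 and 496 pairs of all genes. Within 10 nt of another site lay 58 of the 540 sites (10.7%), against 9.93% of all, and such neighbours share reads.

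Other genes of the same pathways were taken from a list of 55 (59 names with synonyms), which held deadenylation adaptors, decay factors, nonsense-mediated decay factors, release factors and poly(A) polymerases. Of these, 43 had a site, with 82 sites in GV oocytes, 125 in MII oocytes and 179 in embryos. Between the oocytes 24 of 71 shared sites rose and 1 fell, from the MII oocyte to the embryo 37 of 62 rose and 1 fell, and from the GV oocyte to the embryo 32 of 40 rose and 0 fell (exact test, adjusted over all shared sites), where 19.6%, 51.3% and 66.1% of all shared sites were higher. The median differences were 7.15, 11.4 and 18.7 points. Upf1, the helicase of nonsense-mediated decay, had 2, 5 and 13 sites, Sympk, a cleavage factor scaffold, 1, 5 and 12, and Pan2, a deadenylase, 1, 1 and 10. Ddx6, a helicase that represses stored mRNA, had 2 sites in MII oocytes alone, and Ybx1, Tut4, Tut7 and Zfp36 had none at any stage.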

How the data were processed

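The samples were 3 libraries of RNA bisulfite sequencing, 1 for each stage. Per the labels and methods, the authors trimmed reads (cutadapt 1.13, Trimmomatic 0.36), aligned them to mm10 (HISAT2 2.10, Bowtie2 2.2.9) and kept cytosines with 20 or more reads, a level of 10% or more, 5 or more unconverted reads and a binomial p-value. The published methods also describe filters on reads with many unconverted C, on the signal ratio and on conversion-resistant genes. The labels speak of polyA RNA and the methods of rRNA depletion. The deposited tables give coverage as a count of reads, the level as a fraction of unconverted reads made by the authors, and the authors' one-sided p-value against the conversion rate of the gene. The called sites of all genes held 4475058, 5285011 and 2616279 reads in GV oocytes, MII oocytes and 1-cell embryos, and the depth of a library beyond these sites was not given. Unconverted reads were recovered as level times coverage, whole to within 2.9e-05 reads.

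Genes were taken by symbol, and sites were placed in transcripts with GENCODE M21 (GRCm38) and pysam 0.24.0. Levels at sites shared by a pair of stages were compared by a two-sided Fisher's exact test (scipy 1.17.1), adjusted over all shared sites at 0.05. Shares have 95% Wilson intervals and medians exact order-statistic intervals. Relative coverage was centred on the median of all shared sites. Reads without molecular identifiers are not independent molecules, so tests and Wilson intervals cover counting error only. The intervals of medians were taken over sites as if independent, although sites of 1 gene share reads. The test was tried on simulated data. Alternatives were coverage of at least 50 or 100 reads, a level of at least 20%, reads divided by 5 and another scaling of coverage.

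Members and gene lists were chosen with earlier results of these data known. Genes named were 34 regulators whatever their values, the 5 with the most sites, the largest differences and levels, the 5 largest rises and falls of relative coverage, and genes absent from the embryo list. A result that these rules name is not reported here. Eif4b, Eif6, Eif1ax, Eif1ad, Eif4e2, Eif2s1 and Cnot11, the 39 unlisted and 15 embryo genes given as examples, the adjacent cytosines and the single genes of the pathway list were named after their values were seen. Python 3.11.15, pandas 2.3.3 and matplotlib 3.10.9 were used.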

Additional observations from a re-analysis of the deposited data

How the results depend on the processing

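No paired analysis was possible because each stage was 1 library. Of 99 values under alternative settings, 69 stayed within the limits set for them, 30 moved and 0 changed sign. At a level of at least 20% the sites numbered 85, 123 and 225 from GV oocyte to embryo, with medians of 32.4%, 32.4% and 33.9%, and 28 rose and 1 fell between the oocytes, 36 rose and 1 fell from MII oocyte to embryo, and 32 rose and 0 fell from GV oocyte to embryo. The shares that rose were 37.3%, 54.5% and 65.3%, against 24.3%, 53.2% and 67.6% of all shared sites. At 50 reads or more the CDS share in MII oocytes was 75.2% and the embryo median 17.4%. At 100 reads or more the embryo had 135 sites in 52 genes with a median of 18.2%, 32 rose and 2 fell from the MII oocyte, and 34 rose and 0 fell from the GV oocyte, where the median difference was 12.3 points. Of the sites shared with the embryo 54.2% and 73.9% thus rose, against 56.6% and 75.5% of all. These limits leave fewer sites by construction. With reads divided by 5, 0 rose and 0 fell between the oocytes, 11 and 0 from MII oocyte to embryo and 25 and 0 from GV oocyte to embryo, where 0.672%, 7.34% and 21.1% of all shared sites rose. With coverage set against the sum of reads of the list, the median relative coverage of the group was -0.53, -0.77 and -1.20 in the order of the pairs above, so values of relative coverage hold only against the other shared sites. A list of called sites limits what can be said of sites near 10%, and the depth of the embryo, with a median of 69.5 reads, leaves wide intervals there.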

Other observations

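At some sites of the group the number of unconverted reads differed less between stages than coverage did. The exon 2 site of Cnot7 had 206, 201 and 207 unconverted reads at coverages of 981, 617 and 290, and the exon 7 site of Eif4b had 232, 224 and 223 at 891, 705 and 355. These examples were noticed among the largest differences and are not a full count, and library size differed between the stages.

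Of the kinases that phosphorylate eIF2, and so limit initiation, Eif2ak1, Eif2ak3 and Eif2ak4 had sites and Eif2ak2 had none at any stage. Eif2ak1 had 1 site in GV oocytes, 3 in MII oocytes and 10 in embryos, and its site called at every stage, in exon 2, was at 67.2% of 229 reads, 75.8% of 182 and 83.3% of 30, with no call at either step (exact test, adjusted p = 0.191 and 0.583). The exon 10 site of Eif2ak4 was high at every stage, at 84.3% of 159 reads, 87.6% of 153 and 100% of 33. Eif2ak3 had 1 site, at 17.2% of 29 reads and 16.7% of 30 in the oocytes. Eif2ak1 and the comparison of these kinases were chosen after their values were seen.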
